A study of Mus musculus with 16 samples.

Results

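Whole-kidney RNA of 4 Fcgr2b-deficient mice was compared with that of 4 wild-type mice, 1 mouse per one-color Agilent array, which takes in 8 of the 16 arrays of the series. The members were chosen by their titles, which name the Fcgr2b knockout or the wild type, and by no measured value. The deficient mice (Fcgr2b-/- mice below) are described as lupus mice on a 129/C57BL/6 background, and the wild-type mice as C57BL/6, all of them 6 months old. By the study's methods the wild-type mice were purchased, so the deletion, the strain background and the source of the animals cannot be told apart. The labels give the deficient mice no change in Sting, whereas the study's heatmap heads the same columns as heterozygous for the goldenticket (gt) allele of Sting. The other 8 arrays held 4 double-deficient mice (Fcgr2b-/- with Sting gt/gt) and 4 mice with Sting gt/gt alone, which are used here only to estimate the spread and for values side by side. Nothing in the labels gives the sex of a mouse.

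FcγRIIB, the product of Fcgr2b, is the inhibitory receptor for the Fc part of IgG on B cells and myeloid cells, and mice without it can develop autoantibodies and a lupus-like nephritis. Patrolling (nonclassical) monocytes crawl along the inside of small vessels, depend on the nuclear receptor NR4A1 and carry little Ly6C, whereas classical monocytes carry much Ly6C and enter tissue through CCR2. Myeloid cells sense damage and microbes through formyl peptide receptors, C-type lectins such as Mincle, and the TREM and CD300 families, whose activating members signal through adaptors with immunoreceptor tyrosine-based motifs.

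All signals below are log2 of the processed spot brightness minus the 75th percentile of the array, so 0 is the brightness of the 75th percentile, and levels of different probes cannot be compared. Between 28441 and 35564 probes of an array were well above background among these mice, and no spot was saturated. Correlations between arrays of one genotype ran from 0.924 to 0.975 in the Fcgr2b-/- mice and from 0.953 to 0.987 in the wild-type mice. Compared with the wild-type mean, 7118 of the tested probes were at least 2-fold higher in Fcgr2b-/- mouse 1, 1170 in mouse 2, 1946 in mouse 3 and 3360 in mouse 4. Wild-type mouse 1 also stood apart, with 7687 probes at least 2-fold above the mean of the other 3 wild-type mice, against 1331, 1097 and 1387 for mice 2, 3 and 4. The 34 measured proximal tubule genes had a mean signal between 3.47 and 6.02 in the Fcgr2b-/- mice and between 5.08 and 6.35 in the wild-type mice, as the tissue label would have it. Y-linked genes were bright in wild-type mice 1 and 2 and in Fcgr2b-/- mouse 3, and dim in the other 5, so the sexes were mixed unequally. Since RNA came from the whole organ, fewer or more cells of a type and less or more RNA per cell cannot be told apart.

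The deleted gene was read first. The brighter Fcgr2b probe was at 0.70, 0.02, 0.06 and 0.19 in Fcgr2b-/- mice 1 to 4, and at 2.13, 1.91, 1.60 and 1.14 in wild-type mice 1 to 4. The other probe was at −0.58, −1.37, −1.45 and −1.27 against 0.50, 0.29, −0.11 and −0.37. With both probes, the 4 Fcgr2b-/- mice lay below the 4 wild-type mice, but neither fell to background, and where the probes lie relative to the deleted part was not analysed here. The differences of −1.45 and −1.25 each gave p = 0.0286 in a two-sided exact permutation test, the smallest of the 70 relabellings, while limma across all probes did not call them (adjusted p = 0.385 and 0.532, n = 4 per group). Sting1, which encodes the DNA-sensing adaptor STING, was at 2.69, −0.12, −0.27 and 2.49 in the Fcgr2b-/- mice and at 1.03, −1.35, −0.59 and 0.00 in the wild-type mice. Here the groups overlapped, and only Fcgr2b-/- mice 1 and 4 lay above every wild-type mouse (log2 change 1.42, SE 0.66, adjusted p = 1.0, limma).

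Receptors, ribonucleases and an enzyme of myeloid cells made up most of the named genes called higher in the Fcgr2b-/- kidneys. Of 35628 probes tested, 18 (0.0505%) passed in limma (Benjamini-Hochberg adjusted p under 0.05, and 2-fold or more), of which 17 (0.0477%) were higher and 1 (0.00281%) was lower. They belong to 15 named genes, 14 of them (0.0854% of 16400 genes) by the brightest probe of the gene, and 2 of the probes have no name here. None of the 15 is on a list of 83 interferon-inducible genes. However, Ifi202b, 1 of the 15, was kept on a separate list, although the study counts its Ifi200 family as interferon-inducible. In all 18 probes the Fcgr2b-/- mice did not overlap with the wild-type mice, as was true of 441 (1.24%) of the 35624 tested probes with a value in all 8 mice. Every wild-type array was at background in 7 of the 18, and at least 1 was in 15, so that the sizes of those changes rest in part on background. The count depended on single mice. It was 0 without wild-type mouse 2, 3 or 4 or without Fcgr2b-/- mouse 4, 3 without Fcgr2b-/- mouse 1, and 37 without Fcgr2b-/- mouse 2, and it was also 0 when only the 8 arrays were fitted. The labels of wild-type mice 3 and 4 open with a shared number, as do those of Fcgr2b-/- mice 3 and 4 with 1 double-deficient mouse each, and what that number stands for is not given in the sources used here. With it as a random block (estimated correlation 0.827) 3 calls were made, and if it marks related animals, p-values over 4 mice are too small.

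**Figure D1:**
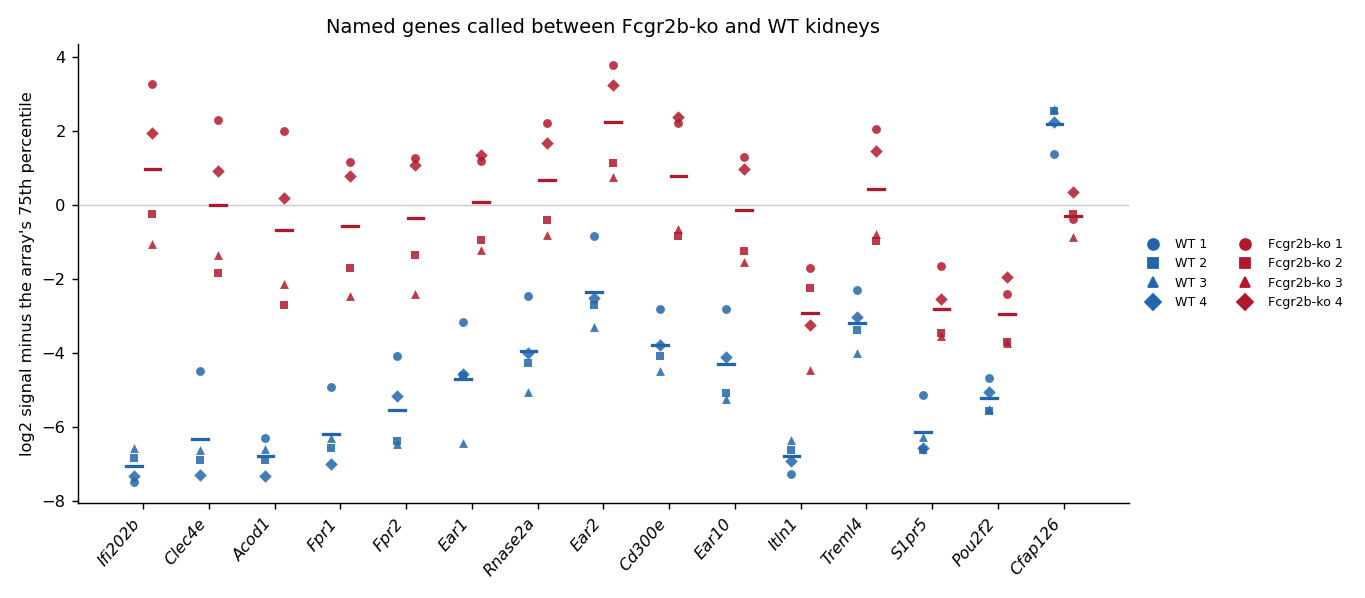
Signal of the 15 named genes called, in each mouse (y axis, log2 signal minus the 75th percentile of the array; x axis, genes by falling log2 change; red, Fcgr2b-/-; blue, wild-type; horizontal bars, means of 4 mice). In each gene the 2 colors do not overlap, Fcgr2b-/- mice 1 and 4 are mostly the highest, and Cfap126 alone is lower in the Fcgr2b-/- mice.

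Clec4e, which encodes Mincle, a C-type lectin for glycolipids and for a protein released by dying cells, was at 2.31, −1.84, −1.34 and 0.92 in Fcgr2b-/- mice 1 to 4. In wild-type mice 1 to 4 it was at −4.48, −6.89, −6.62 and −7.27, with only mouse 1 above background. The change was 6.33 (SE 0.80, adjusted p = 0.0102, limma). Fpr1, a receptor for formylated peptides of bacteria and mitochondria, was at 1.16, −1.70, −2.47 and 0.80 against −4.92, −6.55, −6.28 and −7.00. It was at background in every wild-type mouse and at least 17.7-fold higher in the Fcgr2b-/- mice (adjusted p = 0.0102, limma). Such a bound sets the brighter group against the lowest signal that counts as above background on each array of the dimmer group. Acod1, the enzyme that makes itaconate in activated macrophages, was at 2.0, −2.70, −2.14 and 0.20 in the Fcgr2b-/- mice. It was at background in all wild-type mice, from −7.31 to −6.28, and was at least 17.2-fold higher (adjusted p = 0.0102, limma).

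These 3 genes had the lowest adjusted p, and the 250 bases before their first listed start are given from RefSeq (GRCm38.p6), 5′ to 3′ along the strand of the gene. Capitals mark GAGGAA on either strand, the core that the myeloid factor PU.1 prefers. Clec4e lies at chr6:123289872-123290121 (minus strand), Acod1 at chr14:103046762-103047011 (plus strand) and Fpr1 at chr17:17883940-17884189 (minus strand).
Clec4e: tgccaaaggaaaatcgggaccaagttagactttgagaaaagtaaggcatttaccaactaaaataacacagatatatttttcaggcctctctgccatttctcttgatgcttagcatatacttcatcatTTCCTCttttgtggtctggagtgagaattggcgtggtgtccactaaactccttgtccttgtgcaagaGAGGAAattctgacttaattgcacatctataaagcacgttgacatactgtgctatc
Acod1: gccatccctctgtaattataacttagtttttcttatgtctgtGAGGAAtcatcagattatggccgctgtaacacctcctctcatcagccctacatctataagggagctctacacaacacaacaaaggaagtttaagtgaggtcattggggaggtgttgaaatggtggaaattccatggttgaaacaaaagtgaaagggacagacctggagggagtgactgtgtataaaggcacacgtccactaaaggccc
Fpr1: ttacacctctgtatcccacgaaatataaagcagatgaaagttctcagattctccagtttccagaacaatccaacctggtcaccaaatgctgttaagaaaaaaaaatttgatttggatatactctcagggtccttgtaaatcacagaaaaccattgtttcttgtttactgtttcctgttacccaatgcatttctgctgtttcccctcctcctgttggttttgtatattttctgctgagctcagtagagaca

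GAGGAA occurred 2 times before Clec4e, 1 time before Acod1 and 0 times before Fpr1. Of the 15 named genes called, 7 (46.7%) held it in this window, against 6252 of 27025 genes (23.1%). A pair of GAAA separated by any 2 bases, searched on both strands as a form of the interferon-stimulated response element, was in 0 of the 15 windows and in 821 (3.04%) of all. A match of letters is no binding site, and no test was made of these shares.

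The receptor families were described as a whole from 27 measured genes, formyl peptide receptors, C-type lectins and TREM or CD300 receptors. Of these, 26 were higher in the Fcgr2b-/- mice, 21 at an unadjusted p under 0.05 in limma, and their median log2 change was 2.64 (2.55 with bounds in place of fitted changes, and 2.05 to 3.14 over 21 alternatives). Over all 16400 genes measured, 43.2% were higher, 3.77% were higher at that unadjusted p, and the median was −0.05. In 12 of the 27 genes all 4 Fcgr2b-/- mice lay above all 4 wild-type mice, as did 0.884% of all genes, and 16 of the 27 were above background on all 8 arrays. The mean of the list relative to the wild-type mean was 4.34, 1.34, 1.53 and 3.39 in Fcgr2b-/- mice 1 to 4. In wild-type mice 1 to 4 it was 1.17, −0.60, −0.41 and −0.16, so mice 2 and 3 of the deficient group were closest to wild-type mouse 1.

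Within these families 4 of the 27 genes were called by their brightest probe, against 0.0854% of all genes. They were Clec4e, Fpr1, Cd300e and Treml4. Cd300e, an activating receptor of monocytes, was at 2.22, −0.84, −0.65 and 2.38 in the Fcgr2b-/- mice and at −2.79, −4.08, −4.48 and −3.77 in the wild-type mice (log2 change 4.56, SE 0.70, adjusted p = 0.0309, limma). Treml4, a receptor of the TREM family that binds dead cells, was above background in all 8 mice, at 2.06, −0.98, −0.78 and 1.46 against −2.30, −3.38, −4.00 and −3.02. Its change was 3.62 (SE 0.61, adjusted p = 0.0484, limma). Fpr2, a formyl peptide receptor that also binds lipid mediators and serum amyloid A, was called by 1 of 2 probes. On that probe it was at 1.28, −1.35, −2.39 and 1.07 against −4.08, −6.37, −6.46 and −5.16, and on the brighter one at 3.76, 1.29, 0.46 and 3.14 against 0.04, −0.19, −0.52 and −0.71. Both probes separated the groups, with changes of 5.17 (adjusted p = 0.0344) and 2.51 (adjusted p = 0.255, limma).

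Other lectins of the cluster that holds Clec4e were higher without being called. Clec4n (Dectin-2, a receptor for fungal mannans) was at 4.01, −0.32, −0.88 and 1.82 in the Fcgr2b-/- mice and at −1.14, −3.26, −3.78 and −3.29 in the wild-type mice. Clec4a1 was at 3.72, 0.01, −0.10 and 2.98 against −0.84, −2.58, −2.48 and −1.59. Both separated the groups, by 4.02 (adjusted p = 0.227) and 3.52 (adjusted p = 0.178, limma). Clec4d, the partner chain of Mincle, differed by 4.81 (SE 0.93, adjusted p = 0.133) with only 1 wild-type mouse above background.

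**Figure D2:**
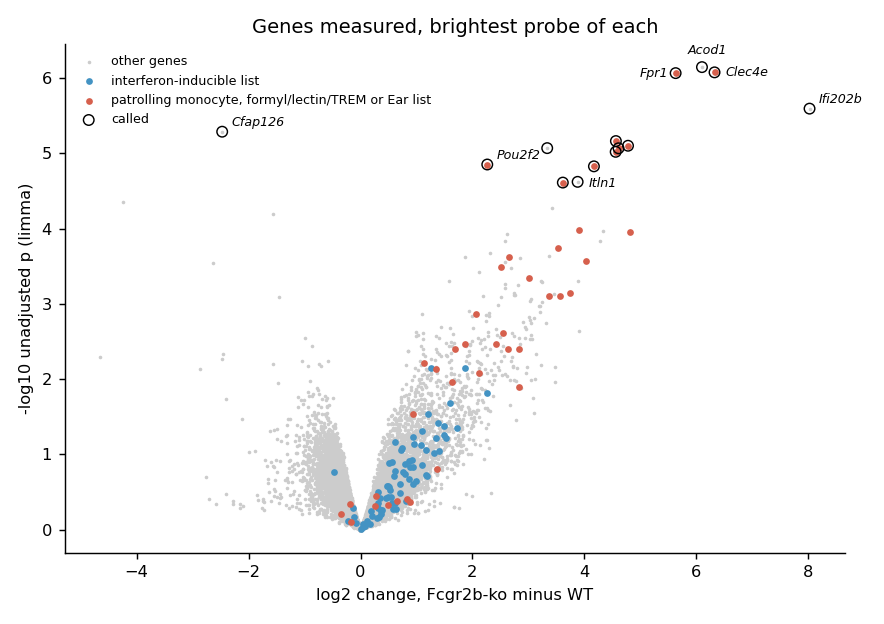
Log2 change between the Fcgr2b-/- and wild-type mice (x axis) against −log10 of the unadjusted limma p (y axis) for 16400 genes, each by its brightest probe. Circled genes were called (14 by this probe), and red dots are genes of the patrolling monocyte, receptor and ribonuclease lists. Blue dots are the interferon-inducible list, which does not hold Ifi202b, and 0 of them were called.

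Ribonucleases of the eosinophil-associated family were called in 4 of 7 measured genes, against 0.0854% of all genes. Of the 7, 4 were above background on all 8 arrays. Ear1, Rnase2a and Ear10, all called, were each above background in 2 of the wild-type mice. The median change of the list was 4.17, and 0.46 over the 4 genes whose probe was above background on all 16 arrays. Ear2 was above background in all 8 mice, at 3.79, 1.14, 0.75 and 3.25 in the Fcgr2b-/- mice and at −0.83, −2.71, −3.29 and −2.50 in the wild-type mice. The lowest Fcgr2b-/- mouse was above the highest wild-type mouse, and the change was 4.56 (SE 0.68, adjusted p = 0.0305, limma). Ear1 was at 1.19, −0.94, −1.22 and 1.35 against −3.16, −4.60, −6.42 and −4.56, Rnase2a at 2.21, −0.40, −0.80 and 1.68 against −2.45, −4.27, −5.05 and −3.99, and Ear10 at 1.31, −1.25, −1.53 and 0.97 against −2.80, −5.07, −5.22 and −4.10. These genes are close paralogs, and whether the 4 probes read 4 separate RNAs was not tested. The other members, Rnase6, Ear6 and Rnase4, had changes of 0.65, 0.27 and −0.35 (adjusted p = 1.0 for each, limma).

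The name of this family comes from eosinophils, so the defining genes of that cell were read beside it. Of 9 listed, 2 passed the filter on dim probes, Il5ra with a change of −0.90 and Cebpe with 0.56 (adjusted p = 1.0 for both, limma), and in both the groups overlapped. Ear2 is also a gene of patrolling monocytes. Eosinophil RNA as a source of the ribonuclease signal was not tested.

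Patrolling monocyte genes were higher in the Fcgr2b-/- kidneys as a list. Of 12 measured genes, 11 were higher, all 11 at an unadjusted p under 0.05 in limma, as were 3.77% of all genes. Of the 12, 4 were called (Ear2, Cd300e, Treml4 and Pou2f2), against 0.0854% of all genes. The median change was 2.34 (1.86 to 2.83 over 21 alternatives). The list and the receptor list share Cd300e, Treml4 and Cd300ld, and the ribonuclease list shares Ear2 with it. The mean of the list was 3.68, 1.44, 1.71 and 3.38 in Fcgr2b-/- mice 1 to 4 and 0.87, −0.47, −0.39 and −0.01 in wild-type mice 1 to 4. Every Fcgr2b-/- mouse was above every wild-type mouse, with mice 1 and 4 highest.

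Pou2f2, which encodes the transcription factor OCT2, was at −2.39, −3.69, −3.71 and −1.94 in the Fcgr2b-/- mice and at −4.68, −5.57, −5.50 and −5.05 in the wild-type mice, of which 1 was above background (log2 change 2.27, SE 0.36, adjusted p = 0.0344, limma). S1pr5, a receptor for sphingosine-1-phosphate used by patrolling monocytes and NK cells to leave the bone marrow, was not on the list. It was at background in every wild-type mouse and at least 3.86-fold higher in the Fcgr2b-/- mice (adjusted p = 0.0305, limma), at −1.65, −3.46, −3.54 and −2.55 against −5.12, −6.60, −6.26 and −6.56.

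The genes by which these monocytes are usually defined were highest in mice 1 and 4. Nr4a1, the nuclear receptor they depend on, was at 3.04, 0.78, 1.44 and 2.55 in the Fcgr2b-/- mice and at 0.81, −1.35, −0.43 and 0.54 in the wild-type mice. Cx3cr1, the fractalkine receptor, was at 3.72, 0.04, 0.98 and 2.79 against 1.05, −1.24, −0.76 and −0.01. Spn (CD43) was at 2.52, −0.28, 0.63 and 2.26 against −0.26, −2.16, −1.71 and −1.36. In these 3 genes wild-type mouse 1 lay above Fcgr2b-/- mouse 2, and limma made no call of the differences of 2.06, 2.12 and 2.65 (adjusted p = 0.532, 1.0 and 0.215). The only gene of the list that was lower was Ace, which the tubule also expresses, with a change of −0.17.

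In the lists of classical monocyte, neutrophil and lymphocyte genes, not every Fcgr2b-/- mouse lay above every wild-type mouse. In that of itaconate, arginine and inflammatory cytokine genes, which holds Acod1, each did. Its means were 2.73, 1.60, 0.49 and 2.58 against −0.12, −0.53, 0.37 and 0.29, with 7 of 10 genes higher and 3 lower. Of 10 classical monocyte genes, 4 were higher, 2 of them at an unadjusted p under 0.05 (3.77% of all genes were). The median of the 10 was −0.21 (−0.36 to 0.12 over 21 alternatives). Their mean was 1.52, 0.22, −0.10 and 0.94 in the Fcgr2b-/- mice against 0.83, −0.26, −0.19 and −0.38 in the wild-type mice. Ly6c2 was at 7.59, 7.46, 7.33 and 7.30 against 8.41, 7.95, 7.19 and 6.97, and its near-identical neighbor Ly6c1 gave almost the same values. Ccr2 was at 1.73, −2.17, −2.04 and 0.35 against 0.86, −2.44, −2.76 and −2.37. In both the groups overlapped (log2 changes −0.21 and 1.14, adjusted p = 1.0 for both, limma), and Ly6c2 is also expressed by endothelium. The larger differences of the list were those of Chil3, a chitinase-like protein, F13a1, a subunit of clotting factor XIII, and Fn1 (fibronectin), at 3.14, 2.24 and 1.48. Chil3 was at 2.71, −1.61, −3.04 and 1.08 against −2.06, −3.87, −3.44 and −4.04, with Fcgr2b-/- mouse 3 below wild-type mouse 1, and the groups overlapped in the other two as well (adjusted p from 0.813 to 1.0, limma).

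Of 13 neutrophil genes, 12 were higher and 1 of them at an unadjusted p under 0.05, with a median of 0.80 (0.15 to 1.28 over 21 alternatives). S100a8 and S100a9, the calprotectin subunits, were highest in Fcgr2b-/- mouse 1, at 2.90 and 4.62, but wild-type mouse 1 had 0.98 and 2.72, above Fcgr2b-/- mice 2 and 3. The T-cell list was at 2.82, −0.32, −0.21 and 1.65 in the Fcgr2b-/- mice, the NK and cytotoxic list at 2.05, −0.35, −0.28 and 1.32, and the B and plasma cell list at 0.92, −0.46, −0.12 and 0.05. Wild-type mouse 1 stood at 0.96, 1.48 and 1.44 on these lists. At an unadjusted p under 0.05 in limma, 4 of 21 T-cell, 0 of 14 NK and cytotoxic and 1 of 16 B and plasma cell genes were higher. Over all genes that share was 3.77%. The groups separated in 0 of these 51 genes and in 1.54% of all genes, so that 0 of 51 says little. Of the 76 measured interferon-inducible genes, 71 were higher, 9 of them at an unadjusted p under 0.05 in limma. The groups separated in 0 of the 76, which says little beside the same 1.54%. These genes had means of 1.90, −0.06, −0.38 and 1.33 in the Fcgr2b-/- mice and a median change of 0.62. Without Fcgr2b-/- mouse 1, 55 of them were higher and the median was 0.25, and over 21 alternatives it reached 1.02.

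**Figure D3:**
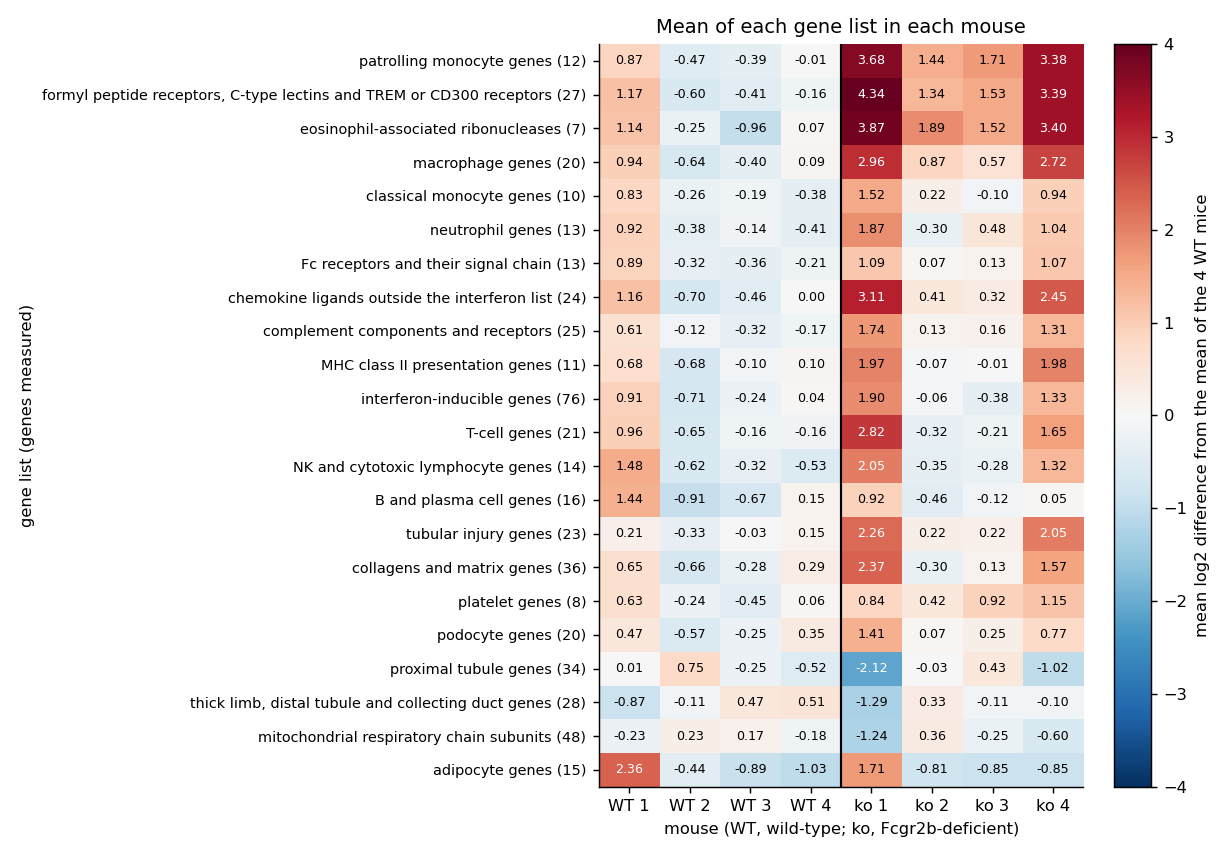
Mean over each gene list (rows, with the number of genes measured) of the log2 difference from the wild-type mean, in each mouse (columns; a black line parts wild-type, WT, from Fcgr2b-/-, ko). In the first 3 rows every Fcgr2b-/- mouse is above every wild-type mouse. The interferon-inducible, T-cell and tubular injury rows are highest in Fcgr2b-/- mice 1 and 4. In the tubular injury row mice 2 and 3 also lie just above wild-type mouse 1, at 0.22 and 0.22 against 0.21.

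Macrophage genes lay between. Of 20 measured, 18 were higher, 15 at an unadjusted p under 0.05 and 6 with groups that did not overlap. Over all genes, 3.77% were higher at that p and 0.884% were higher without overlap. The median of the list was 2.17 (1.68 to 2.63 over 21 alternatives). The list mean was 2.96, 0.87, 0.57 and 2.72 in the Fcgr2b-/- mice, against 0.94 in wild-type mouse 1 and −0.64 to 0.09 in the other wild-type mice. Cd68, a lysosomal protein of macrophages, was at 2.76, 0.99, 1.0 and 3.40 in the Fcgr2b-/- mice and at 0.57, −0.82, −0.78 and −0.06 in the wild-type mice. Csf1r, the receptor for the macrophage growth factor CSF1, was at 5.66, 4.75, 4.81 and 5.57 against 4.06, 4.68, 4.48 and 4.28. Both separated the groups, by 2.31 and 0.82, and neither was called (adjusted p = 0.203 and 0.933, limma).

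The lysozymes were also highest in Fcgr2b-/- mice 1 and 4. Lyz2, the lysozyme of macrophages and neutrophils, was at 2.91, 0.45, 0.38 and 3.13 against −0.02, −2.41, −2.15 and −1.37. Lyz1, its paralog, was at 6.02, 3.12, 2.88 and 5.44 against 2.84, 0.51, 0.80 and 1.17. Their changes were 3.21 (adjusted p = 0.473) and 3.04 (adjusted p = 0.422, limma), and the paralogs may share signal. Slc11a1 (NRAMP1, a metal transporter of phagosomes) differed by 2.85 (adjusted p = 0.216), and Myo1f, a myosin of immune cells, by 2.62 (adjusted p = 0.133), each with groups that did not overlap. Slc2a6, a sugar transporter of lysosomes, differed by 2.76 (adjusted p = 0.385, limma), and the separation was narrow, with −2.12 in Fcgr2b-/- mouse 2 and −2.23 in wild-type mouse 1.

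Among 24 chemokine ligands outside the interferon list, 21 were higher, 12 at an unadjusted p under 0.05, and 3 separated the groups. Over all genes, 3.77% were higher at that p and 0.884% were higher with separate groups. Ccl4, a chemokine that draws monocytes and T cells, was at 2.47, 0.02, −0.67 and 2.03 in the Fcgr2b-/- mice and at −0.95, −3.21, −2.69 and −2.21 in the wild-type mice (log2 change 3.23, SE 0.73, adjusted p = 0.322, limma). Ccl3, a close relative, differed by 3.37 (adjusted p = 0.215), and Cxcl13, which draws B cells to follicles, by 3.46 (adjusted p = 0.385). Ccl8, the largest change of the list at 3.48, was at 3.98 and 3.56 in mice 1 and 4 but at −0.53 and −1.45 in mice 2 and 3, where the wild-type mice ran from −3.46 to −0.99.

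The activating Fc receptors were read beside the deleted inhibitory one, and several of these genes were chosen after their values were seen. Fcer1g, the common signaling chain, was at 5.63, 3.23, 2.76 and 5.44 in the Fcgr2b-/- mice and at 3.34, 1.05, 1.32 and 1.61 in the wild-type mice. Fcgr1, the high-affinity receptor, differed by 2.54, Fcgr4 by 1.95 and Fcgr3 by 0.32, the last of these with a sign that turned to −0.066 without Fcgr2b-/- mouse 4. Syk, the kinase that they share with Mincle, differed by 2.24. In each of these 5 genes the groups overlapped and limma made no call (adjusted p from 0.582 to 1.0). Fcgr4, Fcgr3 and Fcer1g lie 3, 11 and 41 annotated genes from Fcgr2b on chromosome 1. For them, genome of the donor strain left around the deleted gene cannot be told apart from the deletion and the disease. Over the 13 measured genes of this list, Fcgr2b among them, 7 were higher and 6 lower, with a median of 0.32 (−0.066 to 0.64 over 21 alternatives).

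Genes of tubular injury were high in Fcgr2b-/- mice 1 and 4. The list of 23 genes had a mean of 2.26, 0.22, 0.22 and 2.05 in Fcgr2b-/- mice 1 to 4 and of 0.21, −0.33, −0.03 and 0.15 in wild-type mice 1 to 4. Of its genes, 21 were higher, 9 at an unadjusted p under 0.05 (3.77% of all genes were). Of the 23 genes, 0 were called and 0 separated the groups, which says little beside 0.0854% and 1.54% of all genes. Havcr1 (KIM-1, a receptor of damaged proximal tubules) was at 1.0, −4.05, −3.24 and 0.00 against −4.60, −3.98, −4.86 and −3.84. Lcn2 (NGAL, an iron-binding protein) was at 3.33, −0.23, −0.90 and 3.96 against −0.96, −1.0, −0.03 and −0.11, and Timp1, an inhibitor of matrix proteases, at 4.62, −1.23, −0.89 and 2.30 against −1.15, −2.11, −1.81 and −1.29.

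Proximal tubule genes were lowest in Fcgr2b-/- mice 1 and 4. All 34 proximal tubule genes had a log2 change below 0 (30 with quantile normalization), with a median of −0.52 and 1 at an unadjusted p under 0.05 (0.616% of all genes were lower at that p), but their mean was −2.12, −0.03, 0.43 and −1.02 in Fcgr2b-/- mice 1 to 4 and 0.01, 0.75, −0.25 and −0.52 in the wild-type mice. Without Fcgr2b-/- mouse 1 the median was −0.03, and it was 0.20 among the mice with Y-linked signal and −0.79 among those without. The 13 genes known to be higher in male mouse kidney had means of −2.70, −1.79, 1.81 and −2.73 in the Fcgr2b-/- mice and of 2.19, 2.34, −2.09 and −2.45 in the wild-type mice, so that they were high in the 3 mice with Y-linked signal and their part in the tubule values was not tested. Slc4a4, the basolateral bicarbonate transporter of the proximal tubule, was the exception that separated the groups, at 4.95, 6.14, 6.16 and 5.44 against 6.67, 6.48, 6.29 and 6.31 (log2 change −0.76, adjusted p = 1.0, limma). All 48 mitochondrial respiratory chain genes were below 0 as well, with a median of −0.44 (−0.70 to −0.16 over 21 alternatives) and 0 at that unadjusted p. Their mean was −1.24, 0.36, −0.25 and −0.60 in Fcgr2b-/- mice 1 to 4, against −0.23, 0.23, 0.17 and −0.18 in wild-type mice 1 to 4. Without Fcgr2b-/- mouse 1, 12 of the 48 were higher and the median was −0.16. The median over all genes was −0.05, and scaling by the median of an array moved it to −0.21. The list of the thick limb, distal tubule and collecting duct was at −1.29, 0.33, −0.11 and −0.10 in the Fcgr2b-/- mice, with wild-type mouse 1 at −0.87. Of 20 podocyte genes, 18 were higher, with a median of 0.76 and list means of 1.41, 0.07, 0.25 and 0.77.

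Chromosome 1 around Fcgr2b held 3 of the 14 genes called by their brightest probe, which were 0.0854% of all genes. Within 200 annotated genes on either side, 146 were measured, and in 12 of them (8.22%) the groups did not overlap, against 240 of 16253 other genes (1.48%) and 1.54% of all, Fcgr2b included. At an unadjusted p under 0.05 in limma the shares were 19.9% and 4.24%, with 4.38% over all. Genome of the donor strain left around a deleted gene, the deletion and the disease cannot be told apart here.

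Ifi202b, a DNA-binding protein of the Ifi200 family whose level differs between inbred strains, and which was kept on a list of that family apart from the interferon-inducible list, was at 3.27, −0.23, −1.06 and 1.94 in the Fcgr2b-/- mice. In the wild-type mice it was at background, from −7.48 to −6.57, and the change was at least 53.5-fold (adjusted p = 0.0181, limma), with a second probe at least 47.3-fold. The other 6 measured genes of its family all overlapped between the groups, among them Aim2 with a change of 1.84 and Ifi204 with 1.55. In the Sting gt/gt mice, also labelled C57BL/6, Ifi202b was at −7.24, −1.91, −6.69 and −2.78, above background in 2 of the 4.

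Itln1, an intestinal lectin, was at −1.70, −2.23, −4.44 and −3.24 in the Fcgr2b-/- mice and at background in each wild-type mouse. Its signal was at least 3.63-fold higher in the Fcgr2b-/- mice (adjusted p = 0.0484, limma). Cfap126, a protein of motile cilia, was the one gene called lower, at −0.37, −0.25, −0.85 and 0.34 against 1.39, 2.54, 2.60 and 2.24 (log2 change −2.47, SE 0.36, adjusted p = 0.0305, limma). A second probe gave −2.43 (adjusted p = 0.0594, limma), with groups that did not overlap. The other genes of motile cilia did not move with it, since 11 of the 17 measured were higher and the median was 0.11 (−0.046 to 0.24 over 21 alternatives).

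Other genes of this stretch were named after their values were seen. 3110045C21Rik was lower by a log2 change of −4.25 without being called, Dusp23, a protein phosphatase, was at −2.12, −0.21, −1.19 and −0.98 against 0.05, 1.86, 2.17 and 1.97, and Tstd1 was at 2.14, 3.27, 3.23 and 2.57 against 4.26, 4.64, 4.37 and 4.20. For the last 2, limma gave changes of −2.64 (adjusted p = 0.230) and −1.57 (adjusted p = 0.0901). Olfml2b, Atp1a4, Rgs7 and Usf1 had values above 0, of 2.30, 2.29, 1.34 and 1.04, and Gm7694 and Atf6, a sensor of unfolded proteins, differed by 0.45 and −0.59. Each of these 6 separated the groups without being called in limma (adjusted p from 0.532 to 1.0).

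**Figure D4:**
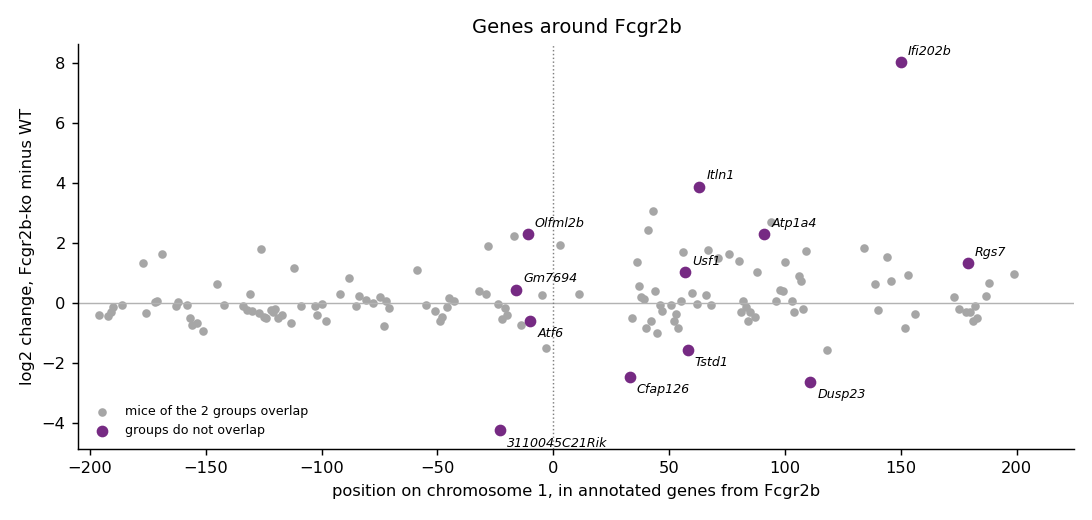
Log2 change between the Fcgr2b-/- and wild-type mice (y axis) of the 146 genes measured within 200 annotated genes of Fcgr2b on chromosome 1 (x axis, order of genes, with Fcgr2b at 0). Purple dots mark the 12 genes whose groups do not overlap, of which 7 are higher and 5 are lower.

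Of all genes, 0.659% were lower in every Fcgr2b-/- mouse than in every wild-type mouse, and those named outside that stretch differed little. Insig1, which holds back cholesterol synthesis, was at −1.40, −1.70, −1.34 and −2.18 against −0.10, −0.91, −0.97 and −0.91. Anks4b, a protein of brush border microvilli, differed by −0.94, Ube2u by −0.81, Prorsd1 by −0.69 and 4430402I18Rik by −0.85. Sdccag8, a centrosomal protein, was lower by a log2 change of −0.71. For these 6 genes limma made no call (adjusted p from 0.956 to 1.0).

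The called genes were also read within slides and within the mice with and without Y-linked signal, since both were unevenly spread. Slide 1 held 3 Fcgr2b-/- and 2 wild-type arrays, and slide 2 held 1 and 2. Of the mice with Y-linked signal, 1 was Fcgr2b-/- and 2 were wild-type, and of those without it 3 and 2. The wild-type arrays of slide 2 are also the wild-type mice without Y-linked signal, so slide and class overlap. Sizes are given for the 3 called genes that were above background in all 8 mice. The change of Ear2 was 4.49 and 3.65 on slides 1 and 2, and 2.52 with and 5.62 without Y-linked signal. For Treml4 these changes were 3.69, 2.73, 2.06 and 4.36, and for Cfap126 −2.06, −3.27, −2.81 and −2.51. The medians of the patrolling monocyte list were 1.39 and 2.82 with and without Y-linked signal, those of the receptor list 1.03 and 3.43, those of the macrophage list 0.47 and 2.77, and those of the interferon-inducible list −0.41 and 1.15.

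The double-deficient and Sting gt/gt mice were set against the same wild-type mice, so only levels are given for them. Clec4e was at −1.94 ± 0.30 (SD, n = 4) in the double-deficient mice and at −6.07 ± 0.85 in the Sting gt/gt mice, where the Fcgr2b-/- mice had 0.01 ± 1.95 and the wild-type mice −6.32 ± 1.25. Ear2 was at 0.21 ± 0.34 and −2.13 ± 0.99 in these 2 groups, against 2.23 ± 1.51 and −2.33 ± 1.06 in the Fcgr2b-/- and wild-type mice. Cfap126 was at −0.40 ± 0.33 and 1.55 ± 0.64, against −0.28 ± 0.49 and 2.19 ± 0.56. The mean of the patrolling monocyte list was 1.19, 1.30, 1.53 and 1.07 in the double-deficient mice and 1.08, 0.24, −0.03 and 0.39 in the Sting gt/gt mice.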

How the data were processed

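Kidney RNA of each of 16 mice went on its own one-color array. The authors deposited scanner intensities (Agilent Feature Extraction 11.0, per the labels), background-subtracted, detrended and not scaled between arrays, and a log2 table whose making is not given in the sources used here. In that table each column correlated with its own array at 0.997 or more.

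Control and outlier spots were left out, spots of a probe averaged, and log2 of the processed intensity taken minus the 75th percentile of that array (Python 3.11.15, pandas 2.3.3). The test was lmFit and eBayes of limma 3.58.1 (R 4.3.3), fitted to all 16 arrays with 1 mean for each genotype, over probes that 4 or more arrays held well above background, and was checked on simulated data. Calls needed a 2-fold change and an adjusted p (Benjamini-Hochberg) under 0.05. Of 56605 probes, 32994 matched a RefSeq symbol (GRCm38.p6), and a gene stands by its brightest probe. Replicates carry separate animal labels.

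The members and gene lists were chosen with earlier results of these data known, so no list is tested. Named are Fcgr2b and Sting1, every called gene, the 10 largest increases and decreases that were not called, lay outside the interferon list, had an unadjusted p under 0.05 and groups that do not overlap and were above background on all 8 arrays, up to 3 genes per list, and defining markers. Some lists and 2 of the genes so chosen are not reported here. Alternatives comprised normexp with offset 50 on the median signal of a spot, quantile and median scaling, the authors' table, other filters on dim probes, only the 8 arrays, trend and robust eBayes, slide, replicate and animal-number blocks, a Y-linked covariate, each array left out, a gene taken as the median over its probes, no fold threshold, and the Mann-Whitney test that the methods name.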

Additional observations from a re-analysis of the deposited data

Results flagged for a closer look

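In 7 of 172 groups of 4 values examined, 1 mouse lay far from the other 3, where chance alone flags about 1 group in 20. Wild-type mouse 1 was that mouse in 6 of the 7. Its Dusp23 signal was 0.055, where the other wild-type mice had 1.86 to 2.17, and its Insig1 signal was −0.10, where the others had −0.97 to −0.91. Relative to the wild-type mean, it was at 0.83 for the classical monocyte list, at 1.48 for the NK and cytotoxic list, at 0.89 for the Fc receptor list and at −0.33 for the renin-angiotensin list. Fcgr2b-/- mouse 1 was at 1.71 for the adipocyte list, where the other 3 Fcgr2b-/- mice were at −0.85 to −0.81, and wild-type mouse 1 was at 2.36. The part of these 2 mice in the results was not tested beyond leaving each out in turn.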

How the results depend on the processing

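The 18 calls ranged from 0 to 37 when each mouse was left out, and were 16 without wild-type mouse 1 and 26 without Fcgr2b-/- mouse 3. They were 5 after normexp background correction (4 of them among the 18), 7 with the authors' table (all 7 among the 18), 3 with the animal number as a random block, 8 with Y-linked signal as a covariate (6 among the 18), 0 with only the 8 arrays (726 probes at an unadjusted p under 0.05, limma), 0 with only probes above background on all 16 arrays (776 at that p, limma), 0 by the Mann-Whitney test with adjustment (441 at p = 0.0286, the smallest that this exact test gives for 4 mice against 4), and 144 by it unadjusted with 2-fold. The count was 22 with scaling by the median, 19 with quantile normalization, 16 without the filter, 16 with trend and robust, 15 with the slide block and 18 without the fold threshold.

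Replicate numbers were not taken to pair the mice, since the labels do not say what they mark and not every pair was alike: the deviations of same-numbered mice correlated at 0.69, 0.60, −0.07 and 0.49, and 6 of 8 mice correlated best with their own number, a hint of pairing for some. A replicate block gave 16 calls (15 among the 18). For Fcgr2b it left the change at −1.45 with an exact p of 0.125, the smallest of 16 relabellings, and with Y-linked signal as a covariate the change was −1.37 (exact permutation p = 0.0571). Without single mice the Fcgr2b change ranged from −1.64 to −1.31. Permutation of Fcgr2b within slides or Y classes was chosen after seeing the data and gave p = 0.0333 for each (exact, 30 relabellings). Over the alternatives for the 15 named genes, 157 values kept the call and 146 lost it, with the direction the same in each. Only a chosen part of the genes not called was followed over the alternatives. In that part Fcgr3 alone turned its sign (−0.066 to 0.64 without single mice), and 15 values became calls. Genes outside it turned too, since 16 of 34 proximal tubule genes were higher without Fcgr2b-/- mouse 1. Signal near background in the wild-type mice limits the size of 15 of the 18 changes. The causes were not tested.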

Other observations

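Other gene groups of the Fcgr2b-/- kidneys were read mouse by mouse. Among 20 measured inflammasome and interleukin-1 genes, all 20 were higher, 5 at an unadjusted p under 0.05 in limma (3.77% of all genes were). The list mean was 2.59, −0.02, 0.31 and 1.72 in Fcgr2b-/- mice 1 to 4 and 1.2, −0.52, −0.51 and −0.17 in wild-type mice 1 to 4. Il1rn, the antagonist of the interleukin-1 receptor, was the 1 gene of this list whose groups did not overlap (1.54% of all genes did not). It was at 0.92, −4.01, −3.96 and −0.70 against background in each wild-type mouse, and at least 7.07-fold higher without being called (adjusted p = 0.133, limma). Il1b, the cytokine it opposes, was at 3.02, −0.27, −0.22 and 2.02 against −0.06, −2.79, −2.91 and −2.51, so that mice 2 and 3 lay just below wild-type mouse 1. Nos2 and Tnf, products of macrophages driven by interferon gamma and endotoxin, differed by −0.18 and −0.11 (adjusted p = 1.0 for both, limma), beside a called increase of Acod1.

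Egr2, a transcription factor induced early in activated cells, was at 1.51, −3.36, −1.75 and 0.35 in the Fcgr2b-/- mice and at −3.46, −6.69, −5.21 and −3.41 in the wild-type mice, apart by a narrow margin (log2 change 3.88, adjusted p = 0.322, limma). Of 11 genes of MHC class II presentation, all 11 were higher, with means of 1.97, −0.07, −0.01 and 1.98 in the Fcgr2b-/- mice. The groups separated in 0 of the 11, which says little beside 1.54% of all genes. Complement genes gave 17 higher of 25, and C1qa, a chain of the first component, separated the groups at 3.68, 1.76, 1.61 and 4.14 against 1.38, −0.34, 0.27 and 0.88 (adjusted p = 0.532, limma). The platelet list stood at 0.84, 0.42, 0.92 and 1.15 in the Fcgr2b-/- mice, with wild-type mouse 1 at 0.63. Collagen and matrix genes gave 31 higher of 36, with means of 2.37, −0.30, 0.13 and 1.57. Cell cycle genes had a list mean of 1.65, −0.36, −0.42 and 1.02, and red cell genes had 1 higher of 9.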
